A study of Mus musculus with 8 samples.

Results

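The genes described here are 9 regulators of luminal identity and hormone response in the mammary gland: the hormone receptors Esr1, Pgr, Prlr and Ghr, the ligand Tnfsf11, the transcription factors Gata3, Elf5 and Foxa1, and the transcriptional co-regulator Cited1. They were listed by name, with earlier results of these data known, and every array probe annotated to them was used. This gave 18 of 41174 probes and 9 of 27962 gene names on the array.

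Luminal cells line the mammary ducts and alveoli, and only some of them carry the steroid receptors. In those cells oestrogen acts through the oestrogen receptor alpha (Esr1), with Foxa1 and Gata3 as partner factors on chromatin, and induces the progesterone receptor (Pgr). Progesterone in turn induces the paracrine ligand RANKL (Tnfsf11), which acts on neighbouring receptor-negative cells. Prolactin and growth hormone signal through the related cytokine receptors Prlr and Ghr to JAK2 and STAT5, and Elf5 drives the alveolar secretory fate downstream of prolactin. Cited1 is a coactivator that binds CBP/p300 and takes part in oestrogen-dependent transcription.

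Each array compared tumour RNA, labelled with Cy5, with a Stratagene universal mouse reference, labelled with Cy3, so every value is a log2 ratio of tumour over that reference. One group was 5 single mammary tumours of genotype Stat3flx/flx/MMTV-NIC, called floxed tumours 1 to 5, and the other was 3 pools, each of 5 tumours, of genotype Stat3wt/wt/MMTV-NIC, called wild-type pools 1 to 3. All came from virgin females, taken 6 weeks post palpation from flash-frozen tissue, and the labels give no age. Both groups carry MMTV-NIC, in which the mammary tumour virus promoter drives activated Neu (ErbB2) and Cre recombinase, so the control tumours express Cre too. By this design Stat3 is removed in the floxed group only, from MMTV-expressing epithelium but not from stroma. A pool averages over 5 tumours while a floxed sample is a single one, so the spread of the groups is not of one kind. The comparison addresses which transcripts differ in ErbB2-driven tumours when Stat3 is floxed.

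Per array, the median intensity of the tumour channel lay between 642 and 891 and that of the background between 47 and 58. The scanner software called 71.7% to 77.3% of probes well above background. The small number of arrays limits the precision. At the Stat3 probe A_51_P201480 the log2 ratio was -1.48 to -1.12 in the 5 floxed tumours and 0.12 to 1.27 in the 3 pools, so the groups did not overlap, with a difference of -2.05 (limma adjusted p = 0.148, exact permutation p = 0.0179). A second Stat3 probe, A_52_P569499, differed by -0.60 with overlapping groups, and whether either probe lies in the floxed part of the gene was not tested. Of the luminal keratins, Krt8 and Krt18 were above the reference on all 8 arrays, with log2 ratios of 1.75 to 2.70 and of 2.86 to 3.99. Krt19 was below it on all 8, at -3.92 to -0.34, and Krt7 lay on both sides, at -0.70 to 2.49. Wild-type pool 3, floxed tumour 1 and floxed tumour 2 stood apart from the other arrays, with median correlations to the rest of 0.880, 0.883 and 0.888, against 0.922 to 0.951 for the remaining arrays. Among all probes measured on every array, pool 3 held the highest value at 22.1% and the lowest at 18.9%. Each of the 3 slides held both groups: floxed 2, floxed 3 and pool 3 shared one, floxed 1 and pool 2 another, and floxed 4, floxed 5 and pool 1 the last.

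The probes are single-stranded DNA of 60 bases, and where on a transcript a probe lies decides which forms it reads. The sequences below are shown because they lie in coding sequence and so tie the values to a known piece of the protein: both Ghr probes belong to the growth hormone binding part outside the cell, the Prlr probe to the membrane-spanning segment, the Pgr probe to the ligand-binding domain, and the Cited1 probe to the C-terminal end. They are written 5′ to 3′ as the array files give them, with no part set in capitals. Positions are on mouse build mm7, per the file headers.
Ghr A_52_P680941: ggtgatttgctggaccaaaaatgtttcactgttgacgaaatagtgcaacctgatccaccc
Ghr A_52_P680935: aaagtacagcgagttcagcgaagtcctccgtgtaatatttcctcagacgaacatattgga
Prlr A_52_P458279: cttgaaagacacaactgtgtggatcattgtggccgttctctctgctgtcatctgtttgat
Pgr A_51_P213476: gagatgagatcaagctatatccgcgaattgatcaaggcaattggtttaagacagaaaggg
Cited1 A_51_P255365: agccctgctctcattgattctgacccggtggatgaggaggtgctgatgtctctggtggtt
The first Ghr probe is listed across chr15:3159367-3166819, a stretch of 7453 bases for 60 bases of probe, so it crosses a splice junction and reads spliced transcript. The second Ghr probe lies at chr15:3153846-3153905, the Prlr probe at chr15:10387524-10387583, the Pgr probe at chr9:8987004-8987063 and the Cited1 probe at chrX:97574905-97574964. Ghr and Cited1 are listed in descending order, which is the minus strand.

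Of the 18 probes, 14 were kept, those with tumour signal called well above background on 3 or more of the 8 arrays, and these covered 7 of the 9 genes. No probe of Pgr or Tnfsf11 passed. None of the 14 passed limma's test at an adjusted p under 0.05, where the share over all 31301 probes was 0%. At an unadjusted p under 0.05, 4 of the 14 were called, all of them Ghr probes and all lower in the floxed tumours, against 4.81% of all probes, made up of 2.96% lower and 1.86% higher. The groups did not overlap at 2 of the 14, both of them the coding Ghr probes and both lower in the floxed tumours, against 2.97% of all probes, made up of 1.91% lower and 1.06% higher. Probes of the same gene read overlapping sets of transcripts, so the Ghr probes are not independent counts. The log2 difference, floxed minus wild-type, was below 0 at 9 and above 0 at 5 of the 14, with a median of -0.24 beside 0.00492 over all kept probes. Without pool 3 it was below 0 at 7 and above 0 at 7, with a median of 0.08, and 5 of the 14 are Ghr probes.

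**Figure D1:**
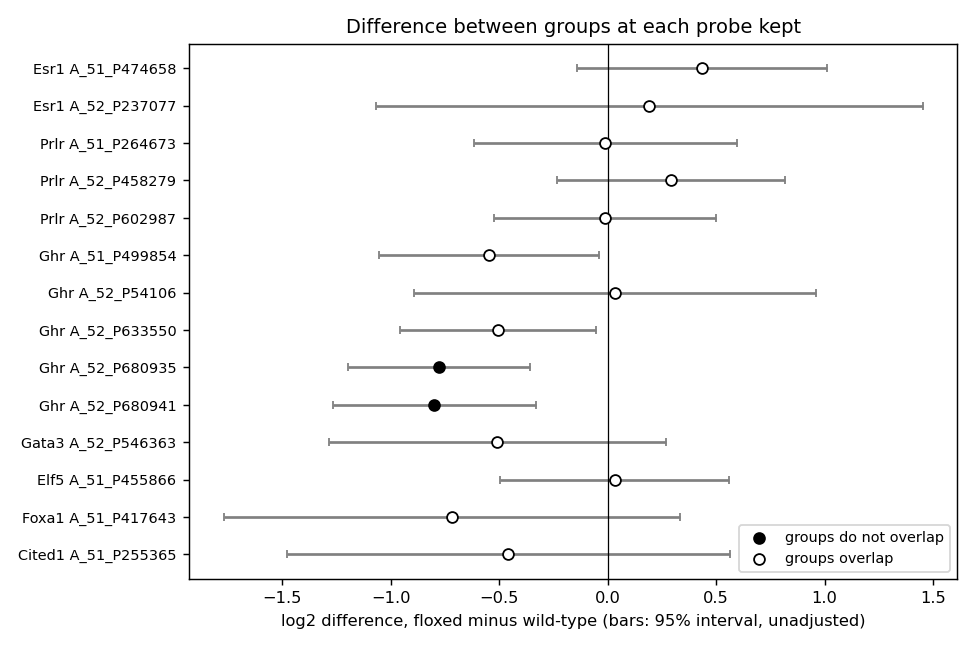
Difference between groups at the 14 kept probes, one line a probe: the horizontal axis is the log2 difference, floxed minus wild-type, and bars are 95% intervals from limma, not adjusted for the number of probes. Filled points, both Ghr coding probes at -0.78 and -0.80, are those where the groups do not overlap.

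Growth hormone receptor was the member with the most separated groups. At the coding probe A_52_P680935 the log2 ratio was -1.79, -1.80, -1.85, -2.12 and -1.90 in floxed tumours 1 to 5, and -1.23, -1.42 and -0.70 in wild-type pools 1 to 3. Every floxed tumour lay below every pool, and pool 3 was the highest. The difference was -0.78 (SE 0.19, 95% interval -1.20 to -0.36), or 1.71-fold lower in the floxed tumours. The limma adjusted p was 0.922 over all probes, with an unadjusted p of 0.00221, which ranked 51 of 31301. An exact two-sided permutation over the 56 ways to divide the 8 arrays into 5 and 3 gave p = 0.0179, the smallest it can give.

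The junction-crossing probe A_52_P680941 gave nearly the same picture. Its log2 ratio was -1.77, -1.88, -1.95, -2.22 and -1.91 in the floxed tumours and -1.29, -1.50 and -0.65 in the pools. The lowest sample was floxed tumour 4 and the highest pool 3, as at the other coding probe, and again the groups did not overlap. It differed by -0.80 (SE 0.21), 1.74-fold lower in the floxed tumours, with a limma adjusted p of 0.922, an unadjusted p of 0.00374 and an exact permutation p of 0.0179. Over the 8 arrays both coding probes followed each other with Pearson's r of 0.995 (exact permutation p = 7.44e-05, adjusted p = 0.00104 over 14 probe pairs) and Spearman's rho of 0.976, and r was 0.978 without the samples farthest from the median.

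Every floxed tumour lay below every pool at both coding probes, so the difference had to be below 0 on each slide. The signs per slide are therefore no further check, and the sizes are given as a description. On the slide of pool 1 the differences were -0.78 at A_52_P680935 and -0.78 at A_52_P680941, on that of pool 2 they were -0.37 and -0.27, and on that of pool 3 they were -1.13 and -1.26, with no test within a slide. Without pool 3 they were -0.57 and -0.55, with unadjusted limma p-values of 0.00704 and 0.0119. In bulk tumour RNA, fewer cells that carry a transcript and less of it per cell cannot be told apart.

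The other Ghr probes did not all follow. The probe nearest the 3′ end, A_51_P499854 at chr15:3143965-3144024, had log2 ratios of -2.22, -1.91, -2.04, -2.34 and -1.82 in the floxed tumours and -1.75, -1.83 and -0.97 in the pools. Here floxed tumour 5 lay just above pool 2, so the groups overlapped, with a difference of -0.55 (SE 0.23, exact permutation p = 0.0357, limma adjusted p = 0.922). A_52_P633550, at chr15:3171178-3171237 and the farthest upstream, gave -2.03, -1.81, -1.52, -1.65 and -1.27 in the floxed tumours and -1.19, -1.37 and -0.89 in the pools. Floxed tumour 5 lay above pool 2 there too, and the difference was -0.51 (SE 0.20, exact permutation p = 0.0714, limma adjusted p = 0.922). Without pool 3 these differences were -0.27 and -0.37, and neither had an unadjusted p under 0.05.

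The fifth Ghr probe, A_52_P54106 at chr15:3151482-3151541, is annotated to an unclassified clone. It read -2.59, -1.62, -1.53, -1.46 and -1.08 in the floxed tumours and -1.47, -0.98 and -2.61 in the pools. Pool 3, the highest sample at the other Ghr probes, was the lowest here, and the groups overlapped fully with a difference of 0.03 (SE 0.41). Its r with the coding probes was -0.41 and -0.46, neither passing an exact permutation test (adjusted p = 0.398 and 0.333). The 5 probes named Ghr thus did not follow a single pattern across the arrays.

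**Figure D2:**
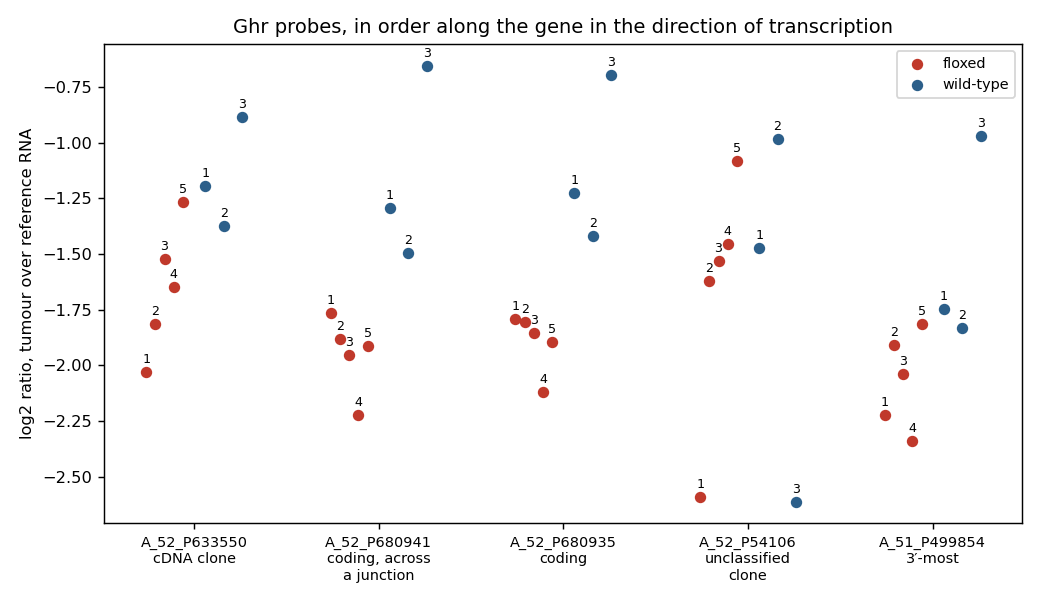
The 5 Ghr probes in order of position along the gene, in the direction of transcription: each point is one array, the vertical axis is the log2 ratio of tumour over reference, and numbers name the floxed tumour or wild-type pool. At both coding probes all 5 floxed tumours lie below all 3 pools, while at A_52_P54106 pool 3 is lowest at -2.61.

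The prolactin receptor showed no separation of the groups at any of its 3 probes. At the brightest, A_52_P602987, the log2 ratio was 6.15, 5.72, 5.41, 5.60 and 5.49 in the floxed tumours and 5.58, 5.37 and 6.12 in the pools. Floxed tumour 1 and pool 3 were the highest and lay close together, and the groups differed by -0.01 (SE 0.23, 95% interval -0.52 to 0.50). The transmembrane probe A_52_P458279 read 4.84, 4.28, 3.99, 3.99 and 3.83 in the floxed tumours and 3.76, 4.08 and 3.84 in the pools, with floxed tumour 1 the highest and a difference of 0.29 (SE 0.23, limma adjusted p = 0.922). At A_51_P264673 the values ran from 6.07 to 6.77 in the floxed tumours and from 6.01 to 7.10 in the pools. Its reference signal did not rise well above background on any of the 8 arrays, so its ratios rest on the tumour channel over a dim reference.

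Prlr was above the reference on every array at every probe, and Ghr was below it on every array at every probe. The reference is a mix of cell lines, so the sign describes tumour against that mix. It does not order the genes' levels in the tumour.

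Oestrogen receptor alpha varied more between single tumours than between groups. The brightest Esr1 probe, A_52_P237077, which is spotted 10 times on each array, read 1.25, -0.31, -1.60, 0.00 and -0.72 in the floxed tumours and -0.45, -1.09 and 0.14 in the pools. Floxed tumour 1 was the highest of the 8 and floxed tumour 3 the lowest, so the floxed tumours spanned all the pools. The SD was 1.05 (n = 5) in the floxed tumours and 0.61 (n = 3) in the pools, and the difference was 0.19 (SE 0.56, 95% interval -1.07 to 1.45). Without floxed tumour 1 it was -0.19.

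The other Esr1 probe, A_51_P474658, had log2 ratios of 0.75, -0.19, -0.39, 0.03 and -0.26 in the floxed tumours and -0.31, -0.38 and -0.65 in the pools. Floxed tumour 3 lay between the pools and the remaining floxed tumours lay above them. The difference was 0.43 (SE 0.26, limma adjusted p = 0.922, unadjusted p = 0.123). With slide as a fixed block the unadjusted p was 0.0443 and the difference 0.51, with an adjusted p of 0.725.

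Progesterone receptor was not detected. Neither Pgr probe was well above background in either channel on any of the 8 arrays, so no fold is given and its ratios carry no direction. Tnfsf11, the RANKL ligand that progesterone induces in normal gland, was well above background in 1 of 5 floxed tumours, floxed tumour 2, and in 0 of 3 pools, at both of its probes. Mean log2 tumour-channel signals were 7.23 and 6.97 at A_51_P465640 and 7.30 and 6.97 at A_52_P488947, floxed first. These means rest mostly on values not well above background, so no fold is given and no difference was detectable.

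**Figure D3:**
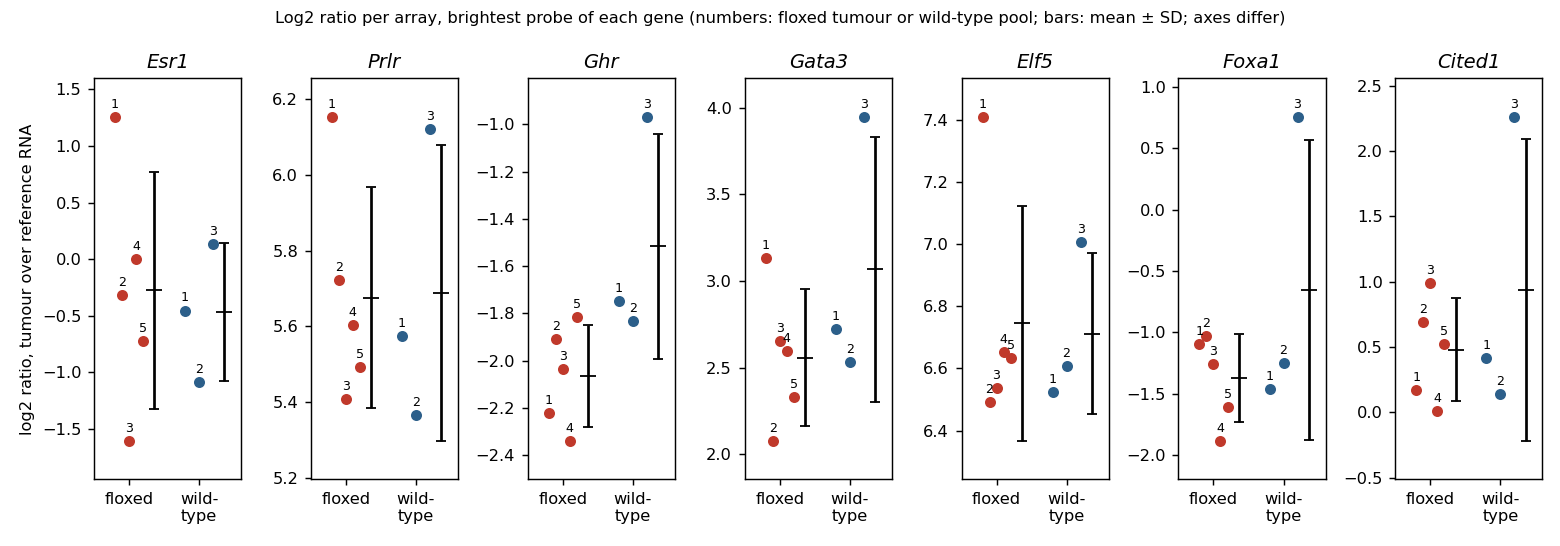
Log2 ratio of tumour over reference at the brightest kept probe of each of the 7 measured genes, one panel a gene and one point an array; the vertical axes differ, numbers name the floxed tumour or wild-type pool, and bars are mean ± SD. Pool 3 is the highest sample for Ghr, Gata3, Foxa1 and Cited1, and floxed tumour 1 for Esr1, Prlr and Elf5.

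Gata3, the zinc finger factor that maintains luminal differentiation, had log2 ratios of 3.13, 2.08, 2.65, 2.59 and 2.33 in the floxed tumours and 2.73, 2.53 and 3.95 in the pools. Pool 3 was the highest by far, and pools 1 and 2 lay among the floxed tumours. The difference was -0.51 (SE 0.34, limma adjusted p = 0.922), and it was -0.07 without pool 3. Foxa1, the forkhead factor that opens chromatin for oestrogen receptor alpha, read -1.09, -1.03, -1.25, -1.88 and -1.60 in the floxed tumours and -1.46, -1.25 and 0.75 in the pools. Pool 3 was the only sample above the reference. The difference of -0.72 (SE 0.47, limma adjusted p = 0.922) became -0.02 without it.

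Elf5, the ETS factor of alveolar progenitors, read 7.41, 6.49, 6.54, 6.65 and 6.63 in the floxed tumours and 6.52, 6.61 and 7.01 in the pools. Floxed tumours 2 to 5 lay between 6.49 and 6.65 and floxed tumour 1 above every other sample. The group means differed by 0.03 (SE 0.23, 95% interval -0.49 to 0.56), and by -0.13 without floxed tumour 1.

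The co-regulator Cited1 had log2 ratios of 0.17, 0.69, 0.99, 0.01 and 0.53 in the floxed tumours and 0.41, 0.14 and 2.26 in the pools. Pool 3 again stood above the rest, and the other pools lay within the range of the floxed tumours. The difference was -0.46 (SE 0.45, 95% interval -1.48 to 0.56) and turned to 0.20 without pool 3.

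Pool 3 held the highest value of the 8 arrays at 8 of the 14 kept probes and floxed tumour 1 at 5, against 22.1% and 22.2% of all probes. Markers of basal and myoepithelial cells, 11 genes all on the array, were highest in pool 3 at 8 of the 11 and lowest there at 1. Their median deviation from the mean of the pools was 0.89 in pool 3, -0.42 in each other pool and -0.70 to -0.05 in the floxed tumours. Krt5 read 2.45 in pool 3 against -0.36 to 1.10 on the other arrays, and Krt14 read 0.40 against -2.02 to -1.48. The contractile genes were mixed. Acta2 read -0.97 in pool 3 against 0.09 to 0.92, and Myh11 (1.30) and Cnn1 (-1.88) lay within the other arrays. Mylk was highest in pool 3, as the keratins were, at 0.90 against -0.73 to 0.55. The summed tumour signal of the list was 90440 to 109699 in floxed tumours and 99057 to 120870 in pools. It was well above background for 8 to 11 of the 11 genes on each array. Pool 3 was not set apart by basal markers alone. The luminal marker list described below had a median deviation of 0.41 there against -0.39 to -0.13 elsewhere. Oestrogen receptor targets had 0.38 against -0.28 to 0.09. Macrophage and endothelial markers were at 0.40 and 0.53 in pool 3, below floxed tumour 2 only, and T cell markers at 0.01. The part of basal or other cells in the high Gata3, Foxa1, Cited1 and Ghr values of pool 3 was not tested.

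Adipocytes also carry Ghr, and their markers varied between samples. Of 14 adipocyte genes, 8 to 14 were well above background on each array, with Lep on only 2 arrays, and the median deviation was 1.71, 0.40, -0.87, -0.63 and -0.20 in floxed tumours 1 to 5 and 0.44, 0.05 and -0.35 in pools 1 to 3. Floxed tumour 1 was the highest and pool 3 below both other pools. The summed signal was 79502 to 192130 in floxed tumours and 76189 to 107332 in pools. Fibroblast markers were highest in floxed tumour 2, with a median deviation of 1.87, and skeletal muscle markers in floxed tumour 5, with 2.21. The part of adipocytes, fibroblasts and muscle in the values of the 9 genes, Ghr among them, was not tested.

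Among the 21 pairs of the 7 measured genes, each at its brightest kept probe, Esr1 and Prlr followed each other most firmly over the 8 arrays. Pearson's r was 0.874 (exact permutation p = 0.000744, adjusted p = 0.0156 over the 21 pairs) and Spearman's rho was 0.952 (exact permutation p = 0.00114, adjusted p = 0.0240). Without the 2 samples farthest from the median of Esr1, r was 0.825. As deviations from the group means r was 0.882 (exact permutation p = 0.000967, adjusted p = 0.0203). The slides hold too few arrays for a value within each. Leaving out either floxed tumour 1 or 5, or else pool 1 or 3, ended the adjusted call, and no pair passed when the tumour channel was used alone. The pair was not tested at the other probes. Both Esr1 probes had r of 0.707 with each other (rho 0.476, adjusted exact permutation p = 0.115 for r). Pool 3 was the lowest array at Esr1 A_51_P474658, but at the probe used only floxed tumour 1 was higher. The Prlr probe used had r of 0.845 with A_51_P264673 and 0.503 with A_52_P458279.

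A further 6 pairs had an unadjusted p under 0.05 by Pearson's r and none passed after adjustment. Foxa1 and Cited1 had the highest r of all, 0.901 (adjusted exact permutation p = 0.113), with a rho of 0.548. Without the 2 samples farthest from the median r was -0.00557, so that relation rests on those samples, pool 3 among them. Ghr with Cited1 went from 0.857 to -0.00282 and Ghr with Foxa1 from 0.852 to -0.62 in the same way. As deviations from the group means these pairs passed after adjustment, where r was 0.895 for Foxa1 and Cited1, 0.920 for Ghr and Cited1 and 0.828 for Ghr and Foxa1 (adjusted exact permutation p = 0.0339, 0.0255 and 0.0413), and 0.694, 0.907 and 0.802 without the 2 farthest samples. The mean subtracted from pools 1 and 2 includes the high values of pool 3 for these genes. As ratios, Prlr with Elf5 went from 0.845 to -0.37 and Esr1 with Elf5 from 0.823 to 0.52, and as deviations Esr1 with Elf5 had r of 0.824 (adjusted exact permutation p = 0.0385), or 0.596 without the 2 farthest.

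**Figure D4:**
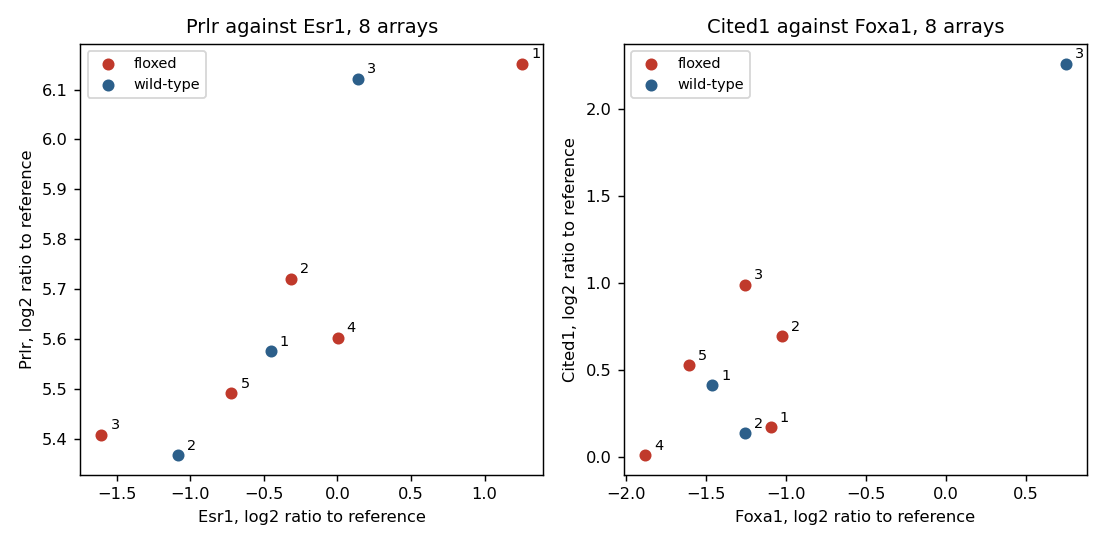
Prlr against Esr1 (left) and Cited1 against Foxa1 (right) as log2 ratios of tumour over reference, one point an array at each gene's brightest kept probe, with numbers naming the floxed tumour or wild-type pool. The Esr1 and Prlr points rise together across both groups (r = 0.874), while the r of 0.901 on the right falls to -0.00557 without the 2 samples farthest from the median of Foxa1.

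For each measured gene the 3 genes with the most similar profile over the 8 arrays were found among 19007 genes, by Pearson's r and as a description only. Nearest to Esr1 were Atp8b1, Slmap and Tmem140, each with r of 0.981. Prlr was nearest to Olfr549 (0.976), 2900011G08Rik (0.975) and Olfr578 (0.967), and Ghr to Rhobtb1 (0.965), Osbpl10 (0.964) and Acer2 (0.959). The nearest to Gata3 were Nr6a1 (0.979), 1600029O15Rik (0.974) and 1190003J15Rik (0.972), and to Elf5 they were Zpbp2 (0.986), Fbxo36 (0.973) and Atp6v1b1 (0.972). Foxa1 ran with the basal keratin Krt15 (0.998), the matrix protein gene Fbln5 (0.992) and an unnamed probe, A_52_P724703 (0.985). Cited1 ran with A530050D06Rik (0.987), Amigo3 (0.984) and Cdk5rap2 (0.971). Over 8 arrays, 84 to 194 genes passed an r of 0.9 with each of the 7.

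The pathways around these genes were described through 7 lists, each gene by its brightest kept probe and without the 9 genes themselves. Of 156 listed genes 146 were measured. An unadjusted p under 0.05 was reached by 8, 6 lower in the floxed tumours and 2 higher, against 4.9% of all genes, made up of 3.3% lower and 1.6% higher, and none passed limma's adjusted test. The groups did not overlap at 3, all lower in the floxed tumours, against 3.15% of all genes, made up of 2.14% lower and 1.01% higher. The median log2 difference was -0.02, beside -0.01 over 21556 genes. The median of 5 of the 7 lists turned sign when one or another sample was left out, those of progesterone and RANKL signalling and of other nuclear hormone receptors excepted.

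Oestrogen receptor targets had 17 measured genes, 10 lower and 7 higher in the floxed tumours, with a median of -0.11 and 1 at an unadjusted p under 0.05. That gene was Igfbp5, an IGF-binding protein, with log2 ratios of 6.55 to 7.59 in the floxed tumours and 7.43 to 8.65 in the pools and a difference of -0.90 (limma adjusted p = 0.922). Agr2, a disulphide isomerase of secretory epithelium, read 4.43 in pool 3 and between -0.14 and 1.12 on the other arrays, with a difference of -1.71. Wisp2, another target, had -0.19 in pool 3 and between -2.82 and -1.55 elsewhere, with a difference of -0.88. Without pool 3 the list's median was 0.06.

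Progesterone and RANKL signalling had 13 measured genes, 8 lower and 5 higher, with a median of -0.09 and 0 at an unadjusted p under 0.05 in limma. The Wnt ligand Wnt4, a paracrine target of progesterone, differed by -0.30, the Wnt co-agonist Rspo1 by -0.31, and Calca by -0.21 with groups that did not overlap. Calca read -0.04 to 0.07 in the floxed tumours and 0.15 to 0.28 in the pools. When a probe had to be well above background on all 8 arrays, 11 genes of this list were left, 6 of them lower, with a median of -0.08. Prolactin and growth hormone signalling had 20 measured genes, 10 lower and 10 higher, with a median of -0.01 and 0 at an unadjusted p under 0.05. The adaptor Irs1 differed by -0.60, the feedback inhibitor Socs1 by 0.33 and the phosphatase Ptpn2 by -0.40. Neither list passed the adjusted test at any gene.

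Other luminal transcription factors and their partners had 33 measured genes, 17 lower and 16 higher, and their median was -0.00184. The homeobox factor Msx2 was the gene at an unadjusted p under 0.05, with 1.84 to 2.35 in the floxed tumours, 0.90 to 1.97 in the pools and a difference of 0.74 (limma adjusted p = 0.922). Zfpm2, a GATA cofactor, differed by 0.61 and the epithelial ETS factor Elf3 by -0.64. Other nuclear hormone receptors had 23 measured genes, 7 lower and 16 higher (median 0.14), and the retinoic acid receptor Rarg (difference 0.73) was the gene at an unadjusted p under 0.05. Without pool 3 the median was 0.07, and it was 0.08 without pool 1 or without floxed tumour 2. The orphan receptor Nr2f2 differed by 0.44 and the oxysterol receptor Nr1h2 by 0.35. Coregulators and the CITED family had 22 measured genes, 10 lower and 12 higher, with a median of 0.02 and 0 at an unadjusted p under 0.05. Crebbp, the acetyltransferase that Cited1 binds, differed by -0.34, the coactivator Ncoa6 by -0.31, and the Mediator subunit Med1 by -0.27 with groups that did not overlap.

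Luminal progenitor and mature luminal markers had 20 measured genes, 14 lower and 6 higher, with a median of -0.22. Over all genes 11346 of 21556 were lower. In the list 5 were at an unadjusted p under 0.05, all lower in the floxed tumours. The share over all genes was 4.9%, made up of 3.3% lower and 1.6% higher. The surface protein Ly6d read -1.85, -1.64, -1.19, -2.16 and -1.43 in the floxed tumours and -1.14, 0.07 and -0.28 in the pools, with no overlap and a difference of -1.20 (limma adjusted p = 0.922). The keratin Krt7 read -0.66, 1.75, -0.06, -0.70 and 0.21 in the floxed tumours and 1.68, 1.50 and 2.49 in the pools. Floxed tumour 2 lay above pools 1 and 2, and the difference was -1.78 (limma adjusted p = 0.922). Itgb3, the integrin of luminal progenitors, differed by -0.75. The remaining 2 genes, named after their values were seen, were Cd14 at -0.96 and Muc1 at -1.23. Cd14 is also among the macrophage markers used here, so in bulk tumour RNA its value is not particular to luminal cells. The 6 higher genes were Ly6a (0.42), Wfdc18 (0.21), Cldn4 (0.19), Kit (0.16), Cldn3 (0.15) and Cldn7 (0.06). Krt8 and Krt18 differed by -0.13 and -0.07. Without pool 3, 2 of the 20 were at an unadjusted p under 0.05, 7 of the 20 were lower and the median was 0.06.

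**Figure D5:**
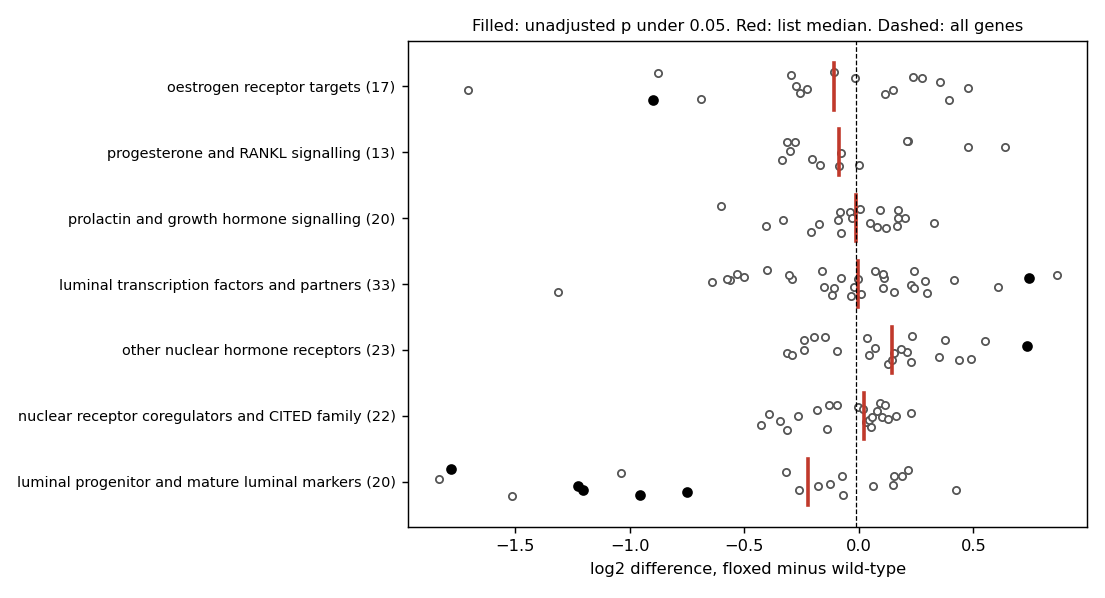
Log2 difference, floxed minus wild-type, of each measured gene in the 7 lists, with the number of genes in parentheses: filled points have an unadjusted p under 0.05, red bars are list medians and the dashed line is the median of all genes. The luminal marker list holds 5 of the 8 filled points, where 4.9% of all genes have such a p, and its median is -0.22.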

How the data were processed

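Spot intensities of array design 014868 were deposited unnormalized. Per the file headers, the software was Agilent Feature Extraction 9.5.3.1 and its protocol GE2-v5_95_Feb07. The authors' deposited table holds log2 values that tracked each array's own tumour over reference ratio (r from 0.989 to 0.994, slope 0.973 to 1.25, column medians 0.00457 to 0.0127). The submitters' processing notes also name RMA, and its centring and exact scale stay unknown, so the table was an alternative.

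With limma 3.58.1 in R 4.3.3, background was corrected by normexp with an offset of 50, loess was applied within arrays with control spots at weight 0, flagged outlier spots were left out and spots of a probe averaged. Probes well above background in the tumour channel on at least 3 of 8 arrays were kept (31301 of 41174). The groups were compared by limma (two-sided), adjusting over all kept probes by Benjamini-Hochberg at 0.05. Single probes and correlations had exact permutation tests. All p-values rest on the spread between these samples alone. A gene's brightest kept probe stood for it in lists and correlations, and each list named its 3 genes of smallest p. Symbols came from RefSeq by accession for 22951 probes, and from the file otherwise.

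On simulated data of the same layout (31172 probes), 18 of 50 probes changed by a log2 of 1 were recovered, 40 of 50 at 2, 49 of 50 at 3 and 49 of 50 at 4, with 7 false calls. The simulated noise was normal and independent between probes, with the same SD in both groups. It therefore held neither the difference between single tumours and pools nor arrays that stand apart at many probes. The genes and lists were chosen with earlier results of these data known. Alternatives were other background corrections, normalizations, filters and probe rules, slide blocks, variance models, the tumour channel alone, the authors' table and leaving out single samples.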

Additional observations from a re-analysis of the deposited data

Results flagged for a closer look

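Among 42 sets of values over the 5 floxed tumours, 2 held a tumour far from the others, where chance gives about 1 in 20, or 2.1 of the 42. Both were floxed tumour 1. Its Elf5 log2 ratio was 7.41, while the other floxed tumours lay between 6.49 and 6.65. The median deviation of the coregulator and CITED family list was -0.22 in floxed tumour 1 and between 0.000663 and 0.03 in the others.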

How the results depend on the processing

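Both coding Ghr probes kept their direction and an unadjusted p under 0.05 in all 20 alternatives that gave a test (p up to 0.00704 and 0.0119), with limma adjusted p-values from 0.385 to 1.00. Not all of these are separate checks. Quantile scaling of intensity between arrays after loess repeated the main fit. The other filters, keeping flagged spots and the other variance model left both differences unchanged. The count of 4 member probes at an unadjusted p under 0.05 was 2 with the authors' table, 1 of the 7 brightest probes when fitted with 1 probe a gene, and 2 to 4 as each sample was left out (2 without floxed tumour 1, floxed tumour 4 or pool 3). Probes past the adjusted threshold numbered 0 of 31301, with 1506 at an unadjusted p under 0.05. They numbered 1 with processed signals and 1 with 1 probe a gene, and 0 to 2 as each sample was left out. The unadjusted count was 660 without pool 3, 2880 without pool 2, 897 with median centring and 2125 with a fixed slide block. The 8 pathway genes became 4 to 14 (4 without pool 3, 14 without pool 2). The 1 called member pair became 5 as deviations from group means, 0 in the tumour channel and 0 to 1 as each sample was left out.

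The following directions turned, the cause not tested. Elf5 was -0.055 with median centring and -0.22 in the tumour channel, and -0.13 to 0.18 as each sample was left out. Ghr A_52_P54106 was -0.0604 with no background correction and -0.0731 in the authors' table, and -0.43 to 0.39 by sample. Prlr A_51_P264673 was 0.24 with no background correction, 0.28 with processed signals, 0.0113 in the tumour channel and 0.23 in the authors' table, and -0.22 to 0.32 by sample. Prlr A_52_P602987 was 0.066, 0.0574 and 0.16 with no background correction, processed signals and the authors' table, 0.00129 with slide as a fixed block, and -0.17 to 0.20 by sample. By sample, Cited1 ran from -0.86 to 0.20 and Esr1 A_52_P237077 from -0.19 to 0.52. Of the list medians, that of coregulators and the CITED family turned to -0.09 with median centring and -0.00223 in the tumour channel. Prolactin and growth hormone signalling turned to 0.0195 in the tumour channel, 0.0157 with slide as a fixed block and 0.0107 in the authors' table. Luminal transcription factors turned to 0.0160 in the authors' table and 0.00645 with slide as a random block. No paired analysis was possible because the floxed tumours carry no replicate numbers in the labels; slide, which holds both groups, was fitted as a block. Pgr and Tnfsf11 lay too near background to compare.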
